A study of Mus musculus with 36 samples.

Results

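The response of old satellite cells to the first day of muscle injury was measured in 6 of the 36 libraries of the series, chosen by their labels. The cells came from hindlimb muscle of wild-type C57BL/6 mice aged 24 months. A group of 3 libraries held cells of resting muscle (quiescent satellite cells, QSC) and a group of 3 held cells taken 1 day after cardiotoxin was injected into the muscle (1 DPI). Cardiotoxin is a snake venom peptide that destroys myofibres. The same table held 3 libraries of old cells at 3 days (3 DPI) and 6 of wild-type C57BL/6 cells from young mice aged 3 months, 3 in QSC and 3 at 1 DPI. The design text describes digestion of minced muscle at warm temperature, lysis of red blood cells and a sort on YFP (QSC and 1 DPI) or CD34-YFP+ (3 DPI), with injured cells taken from 3 muscles of the limb, tibialis anterior, quadriceps and gastrocnemius. That text is written for the YFP reporter strain, and how the wild-type cells of young and old mice were sorted is not stated. The labels do not say whether a library is 1 animal or a pool, so each p-value reflects only how much the libraries vary, which may be technical. That spread was estimated within the groups of all 15 libraries of the table, not in the 6 alone.

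Satellite cells are the stem cells of skeletal muscle. They lie quiescent under the basal lamina of the myofibre, express the transcription factor Pax7, and after injury grow, increase their mitochondrial mass, enter the cell cycle and become myoblasts that express Myod1 and later Myog. Repair after injury is known to be slower in aged muscle. Expression was deposited as TPM, the share of each gene among all transcripts of a library, and changes are given as differences of log2(TPM + 1), 1 DPI minus QSC, with their standard error (±). A gene was called when its adjusted p in limma was below 0.05 over the 16949 genes that reached 1 TPM in at least 3 libraries.

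Between 13053 and 14254 genes reached 1 TPM in the old QSC libraries and between 13911 and 14636 at 1 DPI. The first principal component of all 15 libraries held 37.1% of the variance and put both QSC groups at -99.6 to -77.7 and both 1 DPI groups at 43.2 to 59.6. Old QSC library 1 stood apart in markers of blood cells. The 11 neutrophil markers summed to 4884 TPM in it against 33.2 and 28.7 TPM in QSC libraries 2 and 3, and to 124, 289 and 454 TPM at 1 DPI. The 7 erythroid markers summed to 1698, 6.03 and 103 TPM in QSC, then to 3.68, 3.63 and 102 TPM at 1 DPI. Of the neutrophil markers, S100a8 stood at 2933, 25.4 and 7.87 TPM in QSC, then 63.2, 171 and 290.1 TPM at 1 DPI. Retnlg, Ngp, Camp, Ltf and Mmp8, other genes of the list, stood at 301, 169, 124, 81.0 and 22.7 TPM in QSC library 1 and at or below 2.99 TPM in QSC libraries 2 and 3, whereas Ly6g, a surface marker of neutrophils, was at or below 0.0358 TPM in all 6 libraries. Results that rest on that library are given with and without it.

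**Figure D1:**
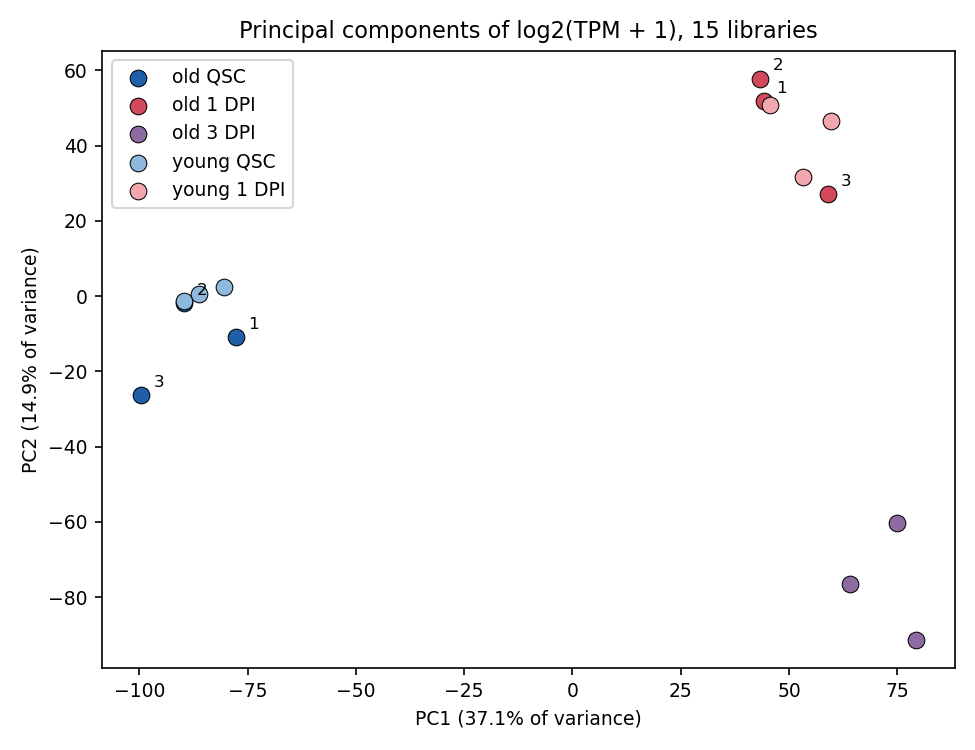
Principal components of log2(TPM + 1) in the 15 libraries of the table, PC1 (37.1% of the variance) against PC2 (14.9%), coloured by group, with the old QSC and 1 DPI libraries numbered. The QSC libraries of both ages lie on the left, and the 1 DPI libraries of both ages lie together on the right, above the old 3 DPI libraries.

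The markers of satellite cells were present in both groups. The 13 satellite cell markers summed to 4614, 7291 and 5860 TPM in QSC, then to 3589, 3182 and 2417 TPM at 1 DPI, and the groups did not overlap. Much of that sum was Sdc4, at 1910, 3302 and 3128 TPM in QSC, then 1142, 1098 and 801 TPM at 1 DPI. Of the 13 markers, 6 had a log2 change above 0. The 20 macrophage and monocyte markers summed to 568, 123 and 536 TPM in QSC, then 242, 465 and 867 TPM at 1 DPI, which overlap. Of these markers 15 had a log2 change above 0, with a median of 0.63 (0.27 for all genes). Only 1 was called higher (5.0%, against 24.8% of all genes) and 0 lower. Without QSC library 1 the median was 1.25, with 1 called higher and 1 lower. The 11 markers of fibro-adipogenic progenitors, the connective tissue cells of muscle, summed to 1243, 1530 and 1344 TPM in QSC, then 763, 474 and 479 TPM at 1 DPI. In QSC much of that sum was Dpt, Dcn and Gsn (156 to 420 TPM for Gsn). Col3a1 stood at 21.9 to 73.7 TPM in QSC and 38.8 to 79.0 TPM at 1 DPI, and Pdgfra, a marker used to sort these cells, at 0.153 to 1.61 TPM over the 6 libraries. The 11 endothelial markers (27.0 to 48.3 TPM in QSC, 25.2 to 38.5 TPM at 1 DPI) and the 14 lymphocyte markers (10.2 to 13.4 TPM and 5.67 to 6.77 TPM) were low, with Cd3e at or below 0.467 TPM in these libraries. The 11 smooth muscle and pericyte markers summed to 260 to 407 TPM in QSC and 244 to 334 TPM at 1 DPI, the 20 of mature myofibres to 96.1 to 242 TPM and 145 to 251 TPM, the 6 of tenocytes to 6.74 to 16.5 TPM and 5.94 to 11.4 TPM, and the 8 of Schwann cells to 99.1 to 118 TPM and 147 to 195 TPM. In bulk RNA, fewer cells of a type and less RNA per cell cannot be told apart. The part of other cells in the changes below was not tested.

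**Figure D2:**
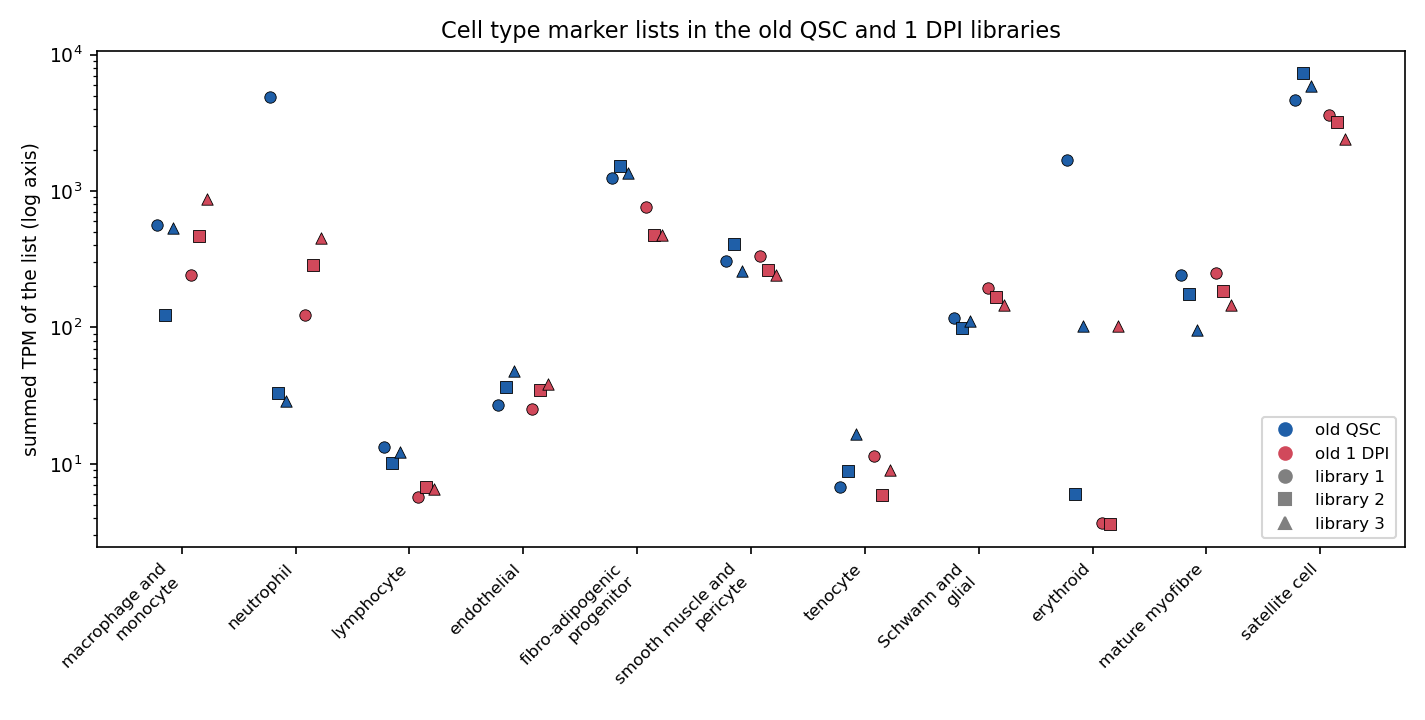
Summed TPM (log axis) of each cell type marker list in the 3 old QSC (blue) and 3 old 1 DPI (red) libraries, with a symbol for each library number. Old QSC library 1 is alone at 4884 TPM of neutrophil and 1698 TPM of erythroid markers, and satellite cell markers have the highest sum in every library but that one.

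The first day after injury changed a large part of the transcriptome of the old cells. Of 16949 genes, 5511 were called, 4202 higher at 1 DPI (24.8% of those tested) and 1309 lower (7.72%). Among these, 3546 had a log2 change above 1 and 898 one below -1, and 4952 of the 5511 were protein-coding. The split of directions depends on scaling. The 10 most abundant genes held 15.4% to 16.9% of all TPM in old QSC and 9.81% to 10.2% at 1 DPI, and the median change of all genes was 0.27. Malat1, a nuclear noncoding RNA named here after its values were seen, stood at 36038, 38495 and 40955 TPM in the QSC libraries and 19512, 21238 and 14500 TPM at 1 DPI. When the libraries were scaled to a common median ratio, the median change was -0.03, and 2958 genes were called higher (17.5%) and 2520 lower (14.9%), so the share of calls that were higher moved from 76.2% to 54.0%. Counts of lists below are therefore given after that scaling too wherever it alters their direction. A list with shares near 24.8% higher and 7.72% lower differs little from all genes, and such counts say nothing particular about its members. Counts given after median-of-ratios scaling are to be set against 17.5% and 14.9% instead. Without QSC library 1, 3930 genes were called higher and 1262 lower, and 4722 of the 5511 calls were kept with the same sign.

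**Figure D3:**
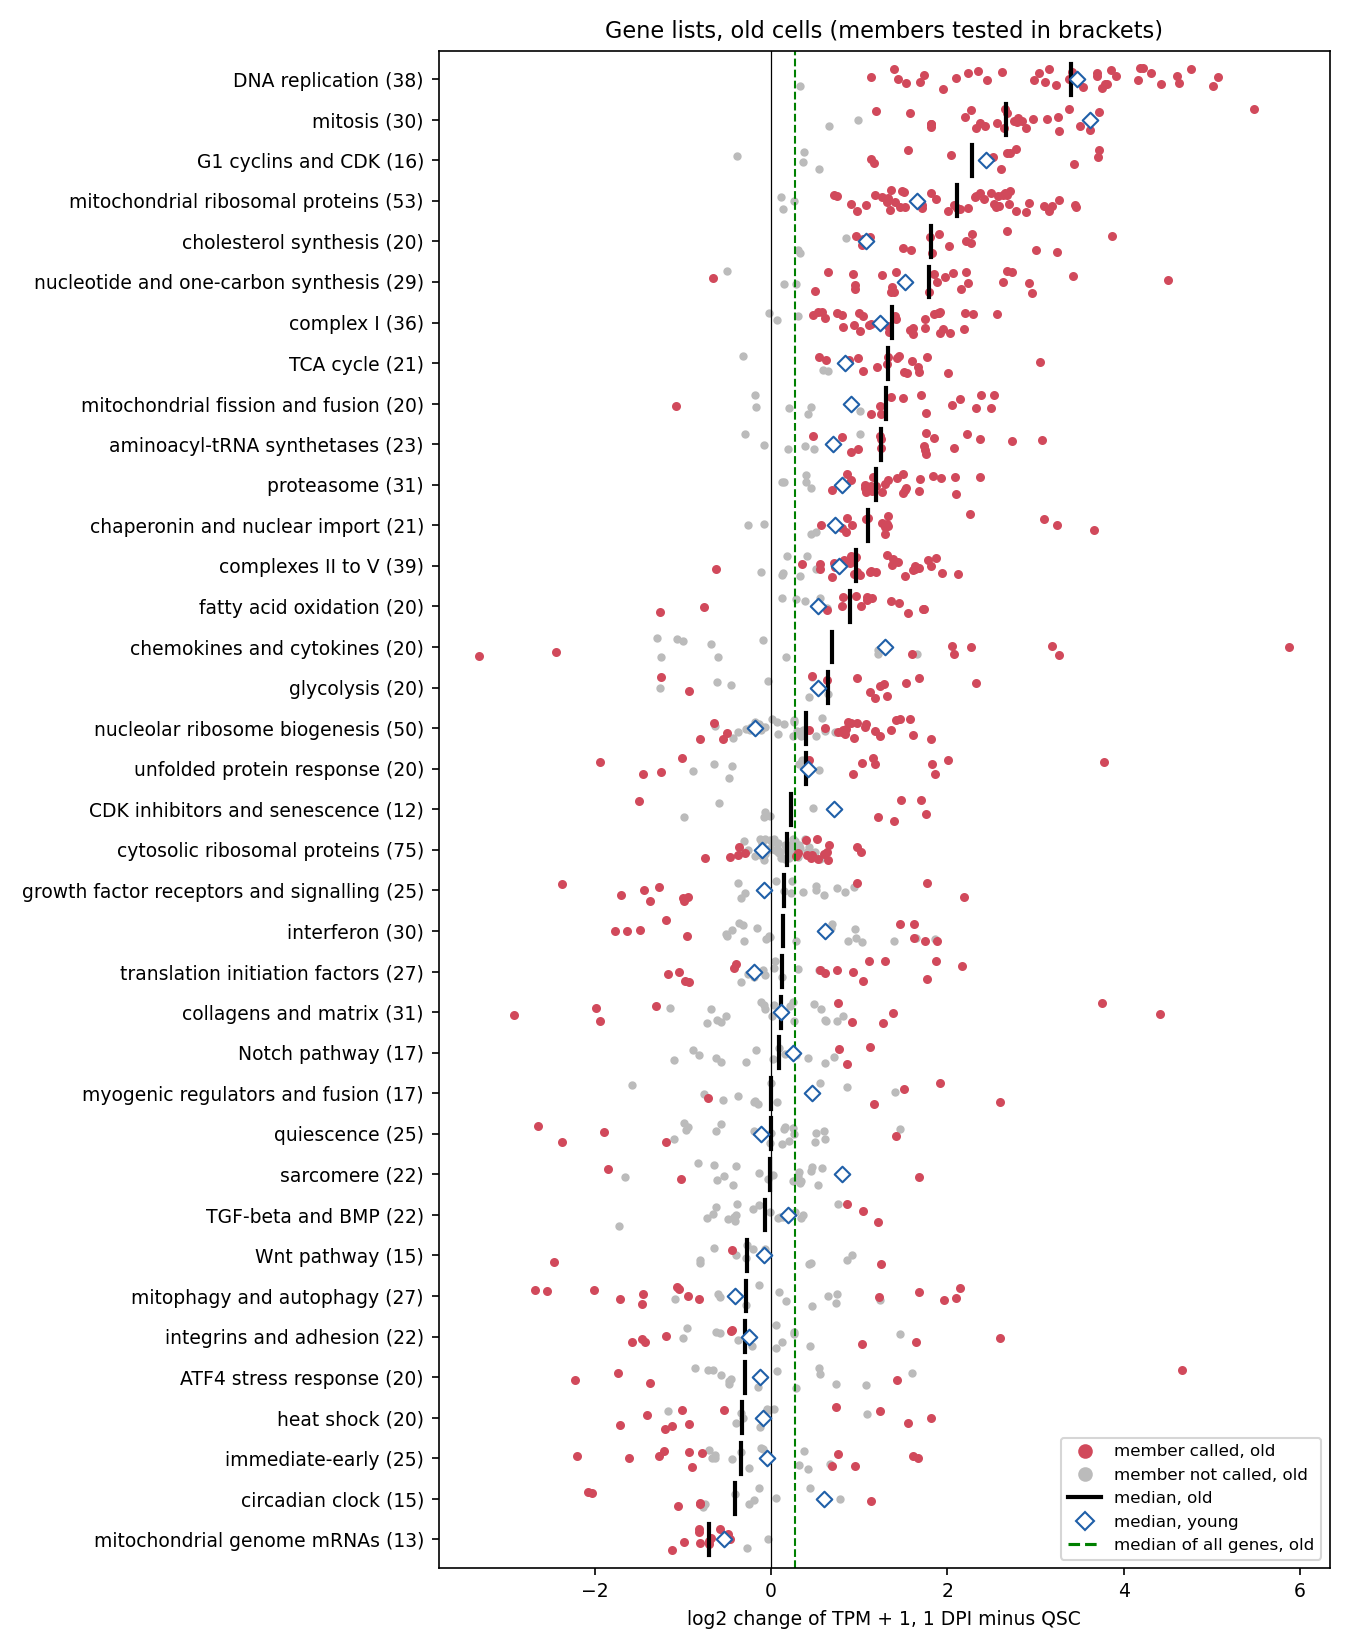
Log2 change of TPM + 1 (1 DPI minus QSC, old cells) of each tested member of 37 gene lists, red where called and grey where not, with the list's median in old cells (black bar), its median in young cells (blue diamond) and the median of all genes in old cells (green dashed line, 0.27). Lists of DNA replication, mitosis, G1 cyclins and mitochondrial ribosomal proteins lie farthest to the right, and mRNAs of the mitochondrial genome farthest to the left.

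Genes of the satellite cell lineage changed in both directions. Pax7 rose, with 5.43, 8.55 and 6.41 TPM in the QSC libraries and 22.4, 23.3 and 14.3 TPM at 1 DPI (log2 change 1.42 ± 0.28, adjusted p = 0.0014). Every 1 DPI library lay above every QSC library. Myf5, a myogenic factor already transcribed in quiescence, stood at 501, 862 and 761 TPM in the QSC libraries and 463, 414 and 383 TPM at 1 DPI (log2 change -0.72 ± 0.20, adjusted p = 0.014), groups that do not overlap. Its call was lost in 4 of 14 alternative analyses. Myod1, which commits cells to the myogenic programme, had 256, 618 and 325 TPM in the QSC libraries and 356, 393 and 244 TPM at 1 DPI and was not called (log2 change -0.20 ± 0.28, adjusted p = 0.64). Myog, the factor of terminal differentiation, had 10.8, 12.5 and 6.86 TPM in the QSC libraries and 8.95, 13.9 and 5.25 TPM at 1 DPI and was not called either (log2 change -0.15 ± 0.34, adjusted p = 0.79). At 3 DPI the Myog level of old cells was 511 ± 159.9 TPM (mean ± SD, n = 3).

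The transcription factor Msc (musculin), an inhibitor of myogenic factors, fell from 443, 483 and 226 TPM in QSC to 77, 59.2 and 35.5 TPM at 1 DPI (log2 change -2.72 ± 0.37, adjusted p = 5.6e-05). Sdc4, a heparan sulphate proteoglycan of the satellite cell surface, fell from 1910, 3302 and 3128 TPM to 1142, 1098 and 801 TPM (log2 change -1.43 ± 0.20, adjusted p = 6.7e-05). Both genes were lower in all 3 injured libraries than in any resting library. Vcam1, an adhesion molecule often used to sort satellite cells, had 457, 1259 and 577 TPM in the QSC libraries and 399, 309 and 224 TPM at 1 DPI (log2 change -1.19 ± 0.35, adjusted p = 0.018), and its call was lost in 3 alternatives. Of the 13 satellite cell markers tested, 1 was called higher and 4 lower, against 24.8% and 7.72% of all genes. The median change of the 13 was -0.13. The 4 were Msc, Sdc4, Vcam1 and Myf5, and 2 were called lower without 1 DPI library 3 or without QSC library 2. Cdh15 (M-cadherin) had 25.4, 21.4 and 2.5 TPM in the QSC libraries and 51.7, 46.7 and 16 TPM at 1 DPI, with the lowest value of each group in library 3, and was not called (adjusted p = 0.1).

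Genes known for high expression in quiescence gave few calls. Of 25 tested, 1 rose (Pax7) and 4 fell, against a background of 7.72% called lower, and their median change was close to 0. After median-of-ratios scaling 9 were called lower, against 14.9% of all genes under that scaling. Chrdl2, a secreted BMP binder, fell from 1102, 1322 and 1177 TPM to 318, 251 and 85.5 TPM (log2 change -2.65 ± 0.51, adjusted p = 0.0011). Rarres2, which encodes the secreted protein chemerin, fell from 547, 470.3 and 436 TPM to 121, 84 and 77.5 TPM (log2 change -2.37 ± 0.28, adjusted p = 2.0e-05). The angiopoietin receptor gene Tek had 9.99, 12.3 and 32.7 TPM in the QSC libraries and 4.71, 2.57 and 3.69 TPM at 1 DPI (log2 change -1.90 ± 0.46, adjusted p = 0.0058). The resting and injured libraries of these 3 genes did not overlap. Calcr, the calcitonin receptor that keeps satellite cells quiescent in mice, had 36.7, 23.3 and 33.8 TPM in the QSC libraries and 19.2, 15.7 and 12.5 TPM at 1 DPI and did not pass (adjusted p = 0.093), although its groups did not overlap.

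Among 17 myogenic regulators and fusion genes, 4 rose and 1 fell, shares near those of all genes. Cdh2 (N-cadherin) went from 1.53, 2.51 and 2.18 TPM to 20.2, 15.4 and 17.1 TPM (log2 change 2.60 ± 0.25, adjusted p = 3.7e-06). Also called higher were Cdon, a cell surface receptor that promotes myogenesis (log2 change 1.17, named after its values were seen), and Pitx3, a homeobox factor (0.87, 0.162 and 0.0269 TPM and 3.97, 4.81 and 0.793 TPM). The calls of Cdon and Pitx3 were each lost in 5 alternatives. Leaving out 1 DPI library 1 or 2, or QSC library 3, left 2 called higher. Median-of-ratios scaling gave 3 higher and 4 lower, against 17.5% and 14.9% of all genes. Mymk, the membrane activator of myoblast fusion, had 6.43, 5.21 and 0.328 TPM in the QSC libraries and 0.0378, 1.14 and 0.035 TPM at 1 DPI and did not pass (adjusted p = 0.09). Of 22 sarcomere genes 1 rose, Tpm1 (tropomyosin, 55.2, 66 and 45.9 TPM in QSC, then 193, 158 and 186 TPM at 1 DPI, log2 change 1.68 ± 0.15, adjusted p = 2.0e-06), and 2 fell, Myl4 and Tnnt1 (log2 change -1.85 and -1.03), near the 7.72% of all genes called lower. Without QSC library 1 or 2, or 1 DPI library 3, 1 was called lower.

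Notch signalling keeps satellite cells quiescent. Of 17 tested genes of the pathway, 3 rose, a share not above the 24.8% of all genes called higher, and 0 fell. Their median change was 0.09. They were Rbpj, the nuclear effector (log2 change 0.77), Adam10, a protease that cleaves the receptor (0.86), and Jag2, a ligand (0.206, 0.553 and 0.378 TPM and 2.01, 1.56 and 2.41 TPM, 1.12). The calls of Rbpj and Adam10 were lost in 6 and 3 alternatives. After median-of-ratios scaling 1 was called higher and 5 lower, against 17.5% and 14.9% of all genes. Without QSC library 1 the count of higher genes was 1. The targets Heyl (50.9, 32.8 and 37.3 TPM in QSC, 30.6, 20.7 and 8.98 TPM at 1 DPI) and Hes1 (46.2, 31.1 and 20 TPM and 28.9, 103 and 35.2 TPM) did not pass (adjusted p = 0.063 and 0.55).

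**Figure D4:**
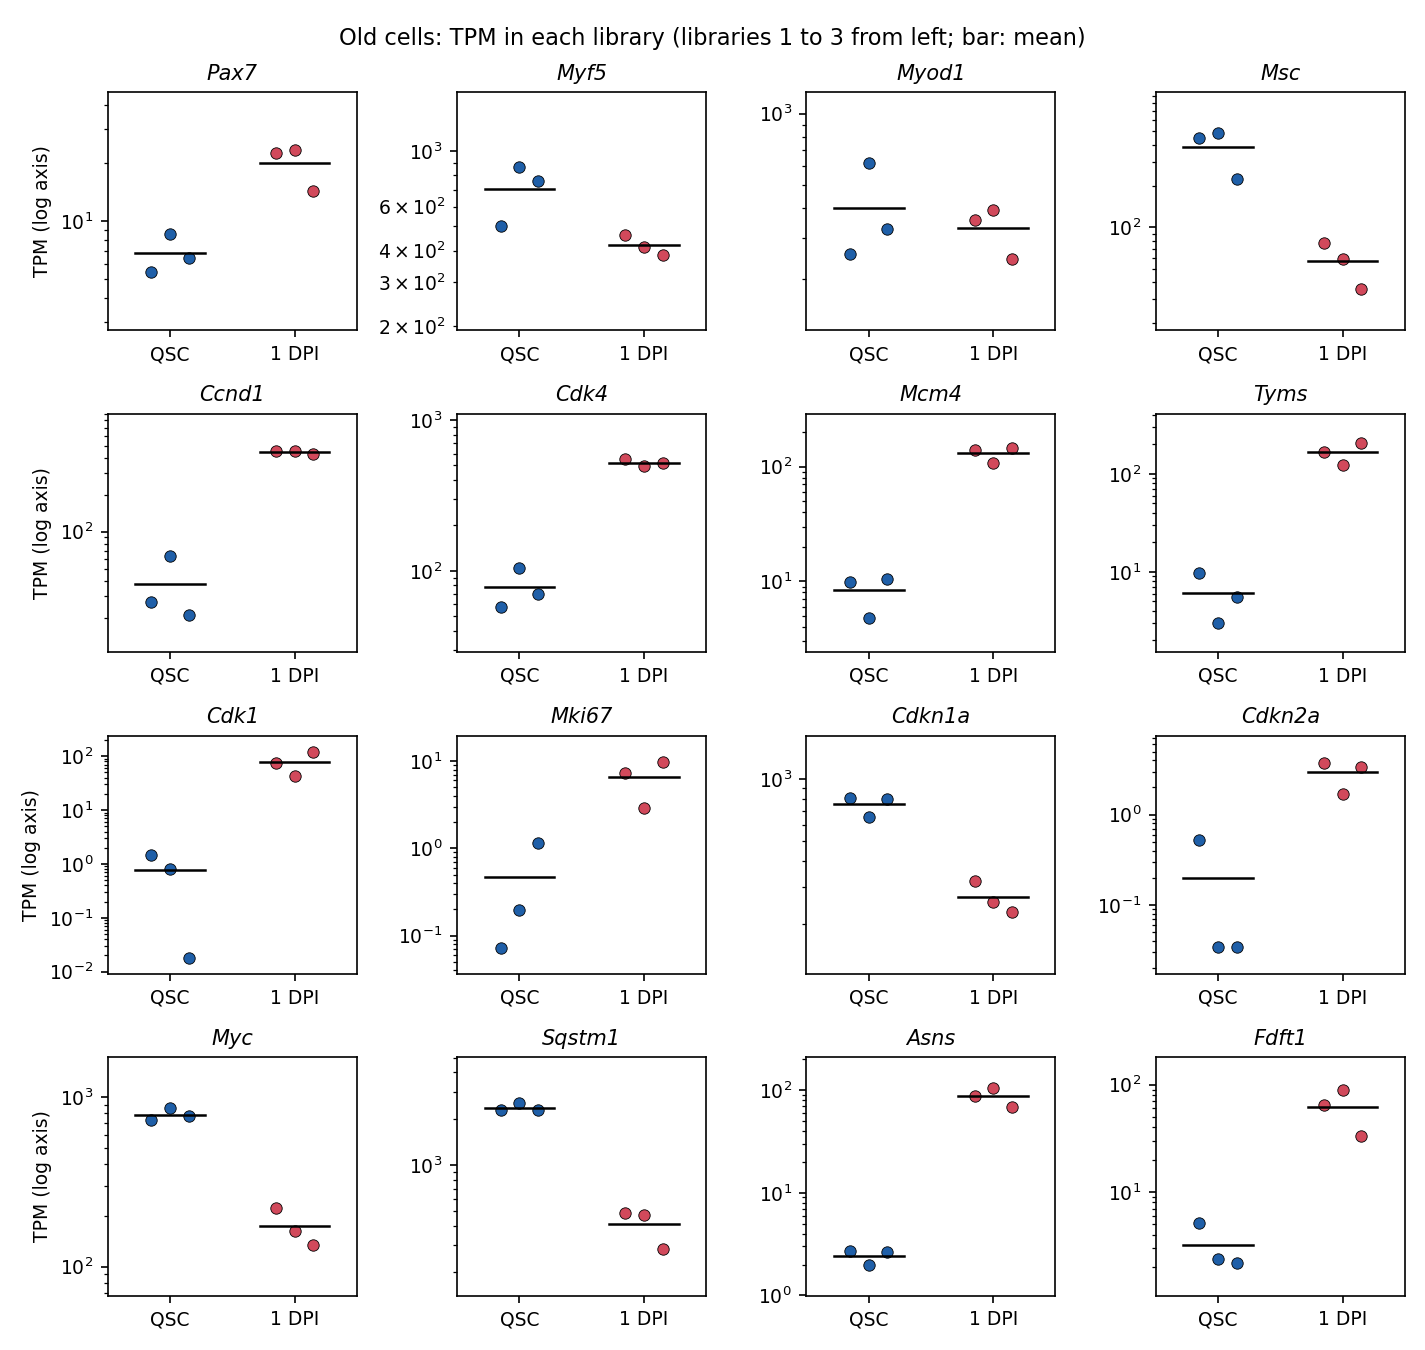
TPM (log axis) of 16 genes in each old QSC (blue) and 1 DPI (red) library, with the group mean as a bar. For all of these genes except Myod1 the 3 libraries at 1 DPI lie wholly above or wholly below the 3 QSC libraries.

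The genes that drive the cell through G1 and S phase rose together. Of 16 G1 cyclins, their kinases and E2F and RB family genes, 12 rose and 0 fell, with a median change of 2.28, against 24.8% of all genes called higher. Ccnd1 (cyclin D1), which links growth signals to the cycle, had 27, 63.6 and 21 TPM in the QSC libraries and 453, 453 and 428 TPM at 1 DPI (log2 change 3.71 ± 0.32, adjusted p = 1.7e-06). Its partner kinase gene Cdk4 had 57.7, 105 and 70.4 TPM in the QSC libraries and 551, 497 and 515 TPM at 1 DPI (log2 change 2.77 ± 0.21, adjusted p = 7.7e-07). Ccne2, the cyclin E that triggers S phase, had 6.26, 2.39 and 12.4 TPM in the QSC libraries and 93.7, 60 and 130.5 TPM at 1 DPI (log2 change 3.72 ± 0.40, adjusted p = 9.3e-06). For each of them the injured libraries lay far above the resting ones. Cdk2 went from 39.4, 29.8 and 37.6 TPM to 111, 93.5 and 113 TPM (log2 change 1.56). Rb1, the retinoblastoma gene that restrains E2F, was among the 4 that did not pass (15.9, 10.1 and 22.4 TPM in QSC, then 7.98, 11 and 17.3 TPM at 1 DPI, adjusted p = 0.5).

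DNA replication genes rose almost without exception. Of 38 tested, 37 were called higher and 0 lower, and their median change of 3.40 was the largest of the 48 lists with a pseudocount of 1. With a pseudocount of 0.1 it was 3.71, below the 4.0 of the mitosis list. Cdc6, which loads the replicative helicase, had 1.27, 1.69 and 1.67 TPM in the QSC libraries and 58.7, 50.2 and 75.6 TPM at 1 DPI (log2 change 4.60 ± 0.25, adjusted p = 1.0e-07). Mcm4, a helicase subunit, had 9.8, 4.83 and 10.5 TPM in the QSC libraries and 139.9, 107 and 144 TPM at 1 DPI (log2 change 3.86 ± 0.23, adjusted p = 1.5e-07). Rfc1, the large subunit of the clamp loader, had 9.71, 8.28 and 9.8 TPM in the QSC libraries and 130.3, 120.3 and 166 TPM at 1 DPI (log2 change 3.76 ± 0.24, adjusted p = 1.6e-07). The groups of these 3 genes lay far apart. Tyms, thymidylate synthase, had 9.83, 3.04 and 5.58 TPM in the QSC libraries and 167, 125 and 205 TPM at 1 DPI (log2 change 4.63 ± 0.30, adjusted p = 1.8e-07). The widest change of the list was that of Mcm2, named after its values were seen, at 0.637, 1.93 and 0.144 TPM and 77.1, 61.4 and 41.1 TPM (log2 change 5.06 ± 0.39). Slbp, the histone mRNA binding protein, was the 1 member that did not pass (342, 209 and 255 TPM in QSC, then 328, 284 and 391 TPM at 1 DPI, adjusted p = 0.21). Pcna, the sliding clamp, was already at 271, 167 and 211 TPM in QSC and reached 469.8, 354 and 614 TPM.

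Mitosis genes also rose. Of 30 tested, 28 were called higher and 0 lower, with a median change of 2.66. That median was 4.0 with a pseudocount of 0.1 and 1.38 with one of 5. Cdk1, the mitotic kinase, had 1.5, 0.793 and 0.0182 TPM in the QSC libraries and 75.2, 42.2 and 121 TPM at 1 DPI (log2 change 5.48 ± 0.44, adjusted p = 1.2e-06). Birc5 (survivin), a subunit of the chromosomal passenger complex, had 1.3, 3.17 and 3.45 TPM in the QSC libraries and 39.6, 20.1 and 72.4 TPM at 1 DPI (log2 change 3.51 ± 0.39, adjusted p = 1.1e-05). Incenp, the scaffold of that complex, had 1.07, 0.357 and 0.367 TPM in the QSC libraries and 18, 16.2 and 25.9 TPM at 1 DPI (log2 change 3.72 ± 0.26, adjusted p = 3.0e-07). The proliferation marker Mki67 had 0.0726, 0.196 and 1.14 TPM in the QSC libraries and 7.23, 2.88 and 9.84 TPM at 1 DPI (log2 change 2.33 ± 0.40, adjusted p = 4.6e-04), and Ccnb1 (cyclin B1, named after its values were seen) had 0.102, 0.273 and 0.72 TPM in the QSC libraries and 13.7, 4.79 and 23.4 TPM at 1 DPI (log2 change 3.25 ± 0.48, adjusted p = 1.2e-04). In both, 1 DPI library 2 was the lowest of its group. Kif2c, a kinesin that depolymerises microtubules, was at or below 0.023 TPM in all QSC libraries and at 7.66, 3.85 and 8.41 TPM at 1 DPI. Cyclin B2 (Ccnb2, 0.453, 2.97 and 5.17 TPM in QSC, then 3.63, 2.87 and 6.71 TPM at 1 DPI) and the centromeric histone Cenpa (4.78, 1.44 and 2.72 TPM and 3.75, 6.81 and 9.92 TPM) did not pass (adjusted p = 0.36 and 0.12).

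The promoters of these genes are shown because replication and mitosis genes are textbook targets of E2F and of the DREAM and CHR system. Windows of 300 bases, from 250 before to 50 after each annotated start, came from RefSeq (GRCm38.p6). They were found for 30 of 38 replication members (35 windows) and 25 of 30 mitosis members (27 windows). Matches were counted on both strands. Of the printed windows, 2 belong to replication genes and 1 to a mitosis gene, each among the 4 members of smallest p of its list, and capitals mark TTCCCGC and TTGGCGC (E2F), TTTGAA (CHR) and CCAAT on either strand.
Cdc6, chr11:98907901-98908200, plus strand: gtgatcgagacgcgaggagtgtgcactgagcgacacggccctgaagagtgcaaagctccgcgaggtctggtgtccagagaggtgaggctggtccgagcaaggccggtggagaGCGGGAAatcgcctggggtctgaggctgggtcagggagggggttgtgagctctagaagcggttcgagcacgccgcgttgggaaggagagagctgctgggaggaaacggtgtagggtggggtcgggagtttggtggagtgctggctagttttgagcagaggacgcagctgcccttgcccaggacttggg
Rfc1, chr5:65335590-65335889, minus strand: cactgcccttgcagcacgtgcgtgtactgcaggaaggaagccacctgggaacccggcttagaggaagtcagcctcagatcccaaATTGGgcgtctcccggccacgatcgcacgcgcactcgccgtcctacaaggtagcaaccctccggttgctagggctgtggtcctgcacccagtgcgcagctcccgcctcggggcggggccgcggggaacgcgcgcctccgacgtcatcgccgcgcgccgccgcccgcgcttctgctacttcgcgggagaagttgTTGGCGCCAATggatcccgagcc
Cdk1, chr10:69352863-69353162, minus strand: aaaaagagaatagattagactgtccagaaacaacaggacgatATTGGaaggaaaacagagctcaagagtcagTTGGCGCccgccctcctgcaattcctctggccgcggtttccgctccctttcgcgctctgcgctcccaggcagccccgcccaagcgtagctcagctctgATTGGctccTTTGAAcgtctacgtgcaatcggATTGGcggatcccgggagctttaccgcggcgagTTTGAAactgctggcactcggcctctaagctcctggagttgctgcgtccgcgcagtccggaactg

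The Cdc6 window holds 1 TTCCCGC and the Rfc1 window 2 TTGGCGC, which overlap on opposite strands, and 2 CCAAT. The Cdk1 window holds 1 TTGGCGC, 2 TTTGAA and 3 CCAAT. The Kif2c window lies inside the gene as GENCODE annotates it, downstream of its start, and is not printed. The printed Cdc6 window, with its marked match, also lies inside its gene, which GENCODE starts at position 98907801 on the plus strand. The windows of Tyms and Birc5 hold none of these letters. TTCCCGC was in 13 of 35 replication windows (37.1%) and 0 of 27 mitosis windows, against 4.60% of all 32851 windows. TTGGCGC was in 22.9% of replication and 18.5% of mitosis windows, against 2.45% of all. TTTGAA was in 21 of 27 mitosis windows (77.8%) and 4 of 35 replication windows (11.4%), against 17.9% of all. CCAAT was in 60.0% of replication and 77.8% of mitosis windows, against 37.4% of all, and in 2 and 3 of these windows a CCAAT overlapped a TTGGCGC. Matches are descriptions of letters, not binding sites.

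Inhibitors of the cell cycle did not move together. Of 12 inhibitors and senescence genes, 5 rose (41.7%) and 1 fell (8.33%), against 24.8% and 7.72% of all genes. After median-of-ratios scaling 5 rose and 4 fell, against 17.5% and 14.9% of all genes. Cdkn1a (p21), an inhibitor of cyclin-dependent kinases, fell from 812, 656 and 797 TPM to 321, 255 and 228 TPM (log2 change -1.50 ± 0.16, adjusted p = 9.9e-06), and the groups did not overlap. At 3 DPI it stood at 963 ± 111 TPM. Cdkn2a, the locus of p16 and p19ARF that marks senescent cells, rose from 0.523, 0.0345 and 0.0344 TPM to 3.77, 1.71 and 3.35 TPM (log2 change 1.70 ± 0.44, adjusted p = 0.0085). Cdkn2d (p19INK4d) rose from 20.8, 13.5 and 15 TPM to 64.8, 45.7 and 62.8 TPM (log2 change 1.76 ± 0.23, adjusted p = 4.7e-05). The p53 target Ccng1 rose from 12.5, 8.69 and 15 TPM to 34.4, 32.3 and 36.7 TPM (log2 change 1.47).

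The 10 largest rises among protein-coding genes of at least 10 TPM were Exo1, Hells, Gmnn, Nup37, Trip13, Cdk1, Spp1, Ccl3, Serpina3n and Pf4. Exo1, an exonuclease of DNA repair, had 0.28, 0.0369 and 0.147 TPM in the QSC libraries and 64.8, 47.7 and 84.3 TPM at 1 DPI (log2 change 5.82 ± 0.31, adjusted p = 1.0e-07). Hells, a chromatin remodeller of S phase, had 4.39, 11.6 and 4.26 TPM in the QSC libraries and 347, 212 and 335 TPM at 1 DPI (log2 change 5.36 ± 0.46, adjusted p = 1.7e-06). Gmnn, the replication licensing inhibitor geminin, had 1, 0.72 and 0.0182 TPM in the QSC libraries and 64.8, 31 and 79.6 TPM at 1 DPI (log2 change 5.19), Nup37, a nuclear pore subunit, 0.949, 1.2 and 1.02 TPM in the QSC libraries and 70.4, 70.6 and 88.7 TPM at 1 DPI (log2 change 5.23), and Trip13, a mitotic checkpoint ATPase, was at or below 0.0313 TPM in QSC and at 45.8, 32.4 and 77.4 TPM at 1 DPI. Cdk1 is described above. The other 4 encode secreted proteins. Spp1 (osteopontin), a matrix cytokine, had 4.27, 2.14 and 5 TPM in the QSC libraries and 258, 133 and 579 TPM at 1 DPI (log2 change 5.88 ± 0.44, adjusted p = 5.8e-07). Ccl3, a chemokine that draws monocytes, had 1.34, 0.149 and 0.149 TPM in the QSC libraries and 70, 72.2 and 166 TPM at 1 DPI (log2 change 6.03 ± 0.64, adjusted p = 8.1e-06). Serpina3n, a protease inhibitor of the acute phase, had 3.35, 0.188 and 0.047 TPM in the QSC libraries and 149, 121 and 41.1 TPM at 1 DPI (log2 change 5.71 ± 0.58, adjusted p = 5.2e-06). Pf4, a chemokine of platelets and myeloid cells, was at or below 0.0678 TPM in all QSC libraries and at 25.2, 96 and 173 TPM at 1 DPI. The macrophage marker sums were 568, 123 and 536 TPM in QSC, then 242, 465 and 867 TPM at 1 DPI, and the neutrophil sums were 4884, 33.2 and 28.7 TPM, then 124, 289 and 454 TPM. Of the 20 macrophage markers, 15 had a change above 0, with a median of 0.63, and 1.25 without QSC library 1. The part of macrophages and neutrophils in these 4 rises was not tested.

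The 10 largest falls included 4 genes of MHC class II antigen presentation. H2-Aa had 49.1, 30.7 and 71.6 TPM in the QSC libraries and 0.101, 0.249 and 7.03 TPM at 1 DPI (log2 change -4.45 ± 1.05, adjusted p = 0.0046). Cd74, the invariant chain, had 230.5, 156 and 351 TPM in the QSC libraries and 4.49, 8.13 and 34 TPM at 1 DPI (log2 change -4.28 ± 0.88, adjusted p = 0.0018). H2-Eb1 had 32.5, 37.6 and 34.3 TPM in the QSC libraries and 2.6, 3.57 and 1.01 TPM at 1 DPI (log2 change -3.48 ± 0.66, adjusted p = 9.6e-04), and H2-Ab1 had 164, 50.1 and 173 TPM in the QSC libraries and 3.85, 3.06 and 21.4 TPM at 1 DPI (log2 change -3.90 ± 1.10, adjusted p = 0.014), the last losing its call in 2 alternatives. In young cells the same 4 genes changed by -0.54, -0.24, 0.31 and -0.77. None of the 4 differences from old cells passed (limma interaction, adjusted p = 0.46, 0.37, 0.25 and 0.60). Cd74 stood at 105, 23.9 and 71.4 TPM in young QSC, then 188, 9.44 and 57.3 TPM in young 1 DPI libraries. The summed macrophage markers of these young 1 DPI libraries were 1006, 396 and 228 TPM. In old cells at 3 DPI Cd74 stood at 943 ± 162 TPM, and the summed macrophage markers were 8880, 8464 and 7638 TPM. The 4 genes are known for expression in macrophages, dendritic cells and B cells. Between old QSC and old 1 DPI the summed macrophage markers overlapped. The summed lymphocyte markers, at 13.4, 10.2 and 12.2 TPM in QSC, then 5.67, 6.77 and 6.53 TPM at 1 DPI, did not. The part of these cells in the 4 falls was not tested.

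Others of the 10 are secreted or signalling proteins. Erfe (erythroferrone), a hormone that lowers hepcidin, fell from 418, 538 and 951 TPM to 29.3, 36.6 and 20.6 TPM (log2 change -4.37 ± 0.29, adjusted p = 2.1e-07). Gal, the neuropeptide galanin, fell from 2611, 7852 and 18959 TPM to 478, 563 and 681 TPM (log2 change -3.68 ± 0.52, adjusted p = 9.1e-05), with a wide spread in QSC. Thbs2, a matrix glycoprotein, fell from 108, 201 and 249.7 TPM to 18.9, 12.3 and 10.4 TPM (log2 change -3.62 ± 0.48, adjusted p = 4.8e-05). Retnla, a secreted protein of alternatively activated macrophages and adipose tissue, had 116, 39.9 and 84.5 TPM in QSC and at most 0.131 TPM at 1 DPI. The remaining genes were Tex14, a protein of intercellular bridges (log2 change -3.78), and Arhgap20, a GTPase activator (log2 change -3.63). For all 10 genes the groups did not overlap, as the rule required.

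Nuclear genes for the mitochondrion rose while the transcripts of the mitochondrial genome fell. Of 53 mitochondrial ribosomal protein genes, 50 rose and 0 fell, with a median change of 2.11. Mrpl40 had 15.3, 9.83 and 11.9 TPM in the QSC libraries and 112, 171 and 154 TPM at 1 DPI (log2 change 3.46 ± 0.21, adjusted p = 1.5e-07). Mrpl37 had 9.83, 15.6 and 12.4 TPM in the QSC libraries and 87.8, 107 and 100.4 TPM at 1 DPI (log2 change 2.89 ± 0.20, adjusted p = 2.6e-07), and Mrps33 had 39, 48.7 and 46.4 TPM in the QSC libraries and 255, 251 and 294 TPM at 1 DPI (log2 change 2.55 ± 0.15, adjusted p = 1.5e-07). All 3 encode subunits of the ribosome that translates the mitochondrial genome.

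Of 36 complex I subunit genes, which encode the entry point of electrons into the respiratory chain, 33 rose and 0 fell, with a median change of 1.37. Ndufv2, a subunit with an iron-sulphur cluster, had 35.3, 52.1 and 51.5 TPM in the QSC libraries and 267, 269 and 287 TPM at 1 DPI (log2 change 2.56 ± 0.16, adjusted p = 1.8e-07). Ndufab1, the acyl carrier protein, had 157, 234 and 215 TPM in the QSC libraries and 668, 737 and 929.7 TPM at 1 DPI (log2 change 1.95 ± 0.16, adjusted p = 1.2e-06). Of 39 genes of complexes II to V, 31 rose and 1 fell, with a median of 0.96. Sdhd, the membrane anchor of succinate dehydrogenase, rose from 58.5, 72.3 and 73.4 TPM to 249, 237 and 307 TPM (log2 change 1.94 ± 0.16, adjusted p = 1.2e-06), and Atp5c1, the rotor subunit of ATP synthase, from 117, 155 and 149.8 TPM to 454, 468 and 567 TPM (log2 change 1.82 ± 0.16, adjusted p = 1.9e-06). The gene that fell was Uqcrh, a hinge protein of complex III (878, 880.2 and 779.7 TPM to 534, 495 and 623 TPM, log2 change -0.62 ± 0.12, adjusted p = 0.0014). Of 21 TCA cycle genes 18 rose and 0 fell, with a median of 1.33. Fh1, fumarate hydratase, had 15.3, 15 and 12.7 TPM in the QSC libraries and 126, 129 and 122 TPM at 1 DPI (log2 change 3.05 ± 0.23, adjusted p = 5.5e-07), and Mdh2, malate dehydrogenase, went from 308, 327 and 263 TPM to 825, 875 and 1033 TPM (log2 change 1.60). After median-of-ratios scaling, 44, 24, 24 and 15 genes of the lists of mitochondrial ribosomal proteins, complex I, complexes II to V and TCA cycle were called higher and 0, 1, 2 and 1 lower.

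The 13 mRNAs encoded by mitochondrial DNA moved the other way, with 0 called higher and 11 lower, and a median change of -0.71. mt-Co3, a subunit of cytochrome oxidase, fell from 6729, 6287 and 5742 TPM to 2981, 2796 and 2797 TPM (log2 change -1.13 ± 0.11, adjusted p = 3.1e-06). mt-Cytb fell from 7791, 6993 and 8842 TPM to 4562, 4181 and 4713 TPM (log2 change -0.81 ± 0.09, adjusted p = 1.2e-05), and mt-Atp8, a subunit of ATP synthase, from 42918, 39518 and 41355 TPM to 31065, 28663 and 30177 TPM (log2 change -0.46 ± 0.07, adjusted p = 9.0e-05). The groups did not overlap for any of the 3. mt-Nd1 (3177, 3003 and 2745 TPM and 2789, 2822 and 3060 TPM) and mt-Nd3 did not pass (adjusted p = 0.79 and 0.38). After median-of-ratios scaling all 13 were called lower.

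**Figure D5:**
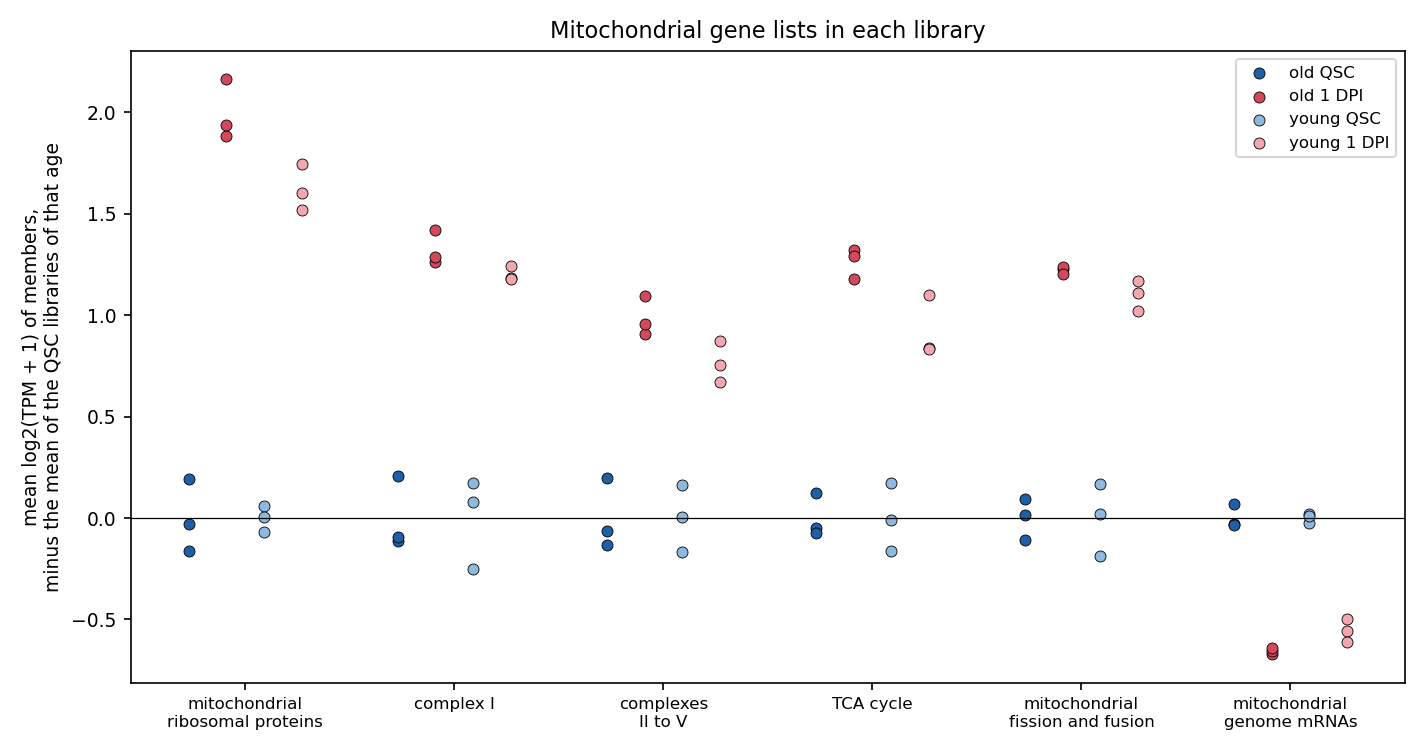
Mean log2(TPM + 1) over the tested members of 6 mitochondrial lists in each library, minus the mean of the QSC libraries of the same age, for old (dark) and young (light) cells in QSC (blue) and at 1 DPI (red). The 5 lists of nuclear genes lie above the QSC libraries at 1 DPI in every library of both ages, and the mRNAs of the mitochondrial genome lie below them.

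Genes that shape the mitochondrial network rose for both fission and fusion. Of 20 tested, 13 rose and 1 fell, with a median of 1.30. Dnm1l, whose product Drp1 divides mitochondria and is the protein the series studies, had 14.6, 31.7 and 35.5 TPM in the QSC libraries and 48.2, 64.6 and 59.6 TPM at 1 DPI (log2 change 1.13 ± 0.27, adjusted p = 0.0052). Every injured library lay above every resting one, but the call was lost in 2 alternatives, including median-of-ratios scaling (log2 change 0.71, adjusted p = 0.057). Its receptor on the outer membrane, Mff, rose from 38.3, 42.9 and 34.4 TPM to 99.2, 91.7 and 87.1 TPM (log2 change 1.25 ± 0.25, adjusted p = 0.0017). Opa1, the fusion GTPase of the inner membrane, had 3.7, 3.11 and 6.14 TPM in the QSC libraries and 24.7, 30 and 20.7 TPM at 1 DPI (log2 change 2.32 ± 0.30, adjusted p = 4.5e-05). Mfn2, a fusion GTPase of the outer membrane, rose from 5.36, 2.57 and 2.95 TPM to 13.2, 12.4 and 6.94 TPM (log2 change 1.36 ± 0.33, adjusted p = 0.0051). Among genes of cristae and inner membrane scaffolds, Stoml2 rose from 44.3, 55.5 and 45.3 TPM to 274, 272 and 305 TPM, Chchd3 from 34.4, 42.7 and 30.5 TPM to 174, 198 and 198 TPM and Immt from 58.9, 76.1 and 83.6 TPM to 235, 264 and 214 TPM (log2 change 2.53, 2.38 and 1.70). Inf2, a formin that acts with Drp1 at contact sites, was the 1 that fell (-1.08), and that call was lost in 9 alternatives. Mff and Mfn2 were named after their values were seen.

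Autophagy and mitophagy genes were mixed, with 5 of 27 called higher (18.5%) and 10 lower (37.0%) and a median of -0.29. The shares of all genes were 24.8% and 7.72%. The genes of smallest p were cargo and membrane adaptors, and all 4 fell. Sqstm1 (p62), a receptor for ubiquitinated cargo, fell from 2281, 2513 and 2273 TPM to 488, 474 and 280.5 TPM (log2 change -2.55 ± 0.21, adjusted p = 1.2e-06). Map1lc3a (LC3A), which coats the autophagosome, fell from 422, 271 and 183 TPM to 58.3, 37.6 and 34.2 TPM (log2 change -2.68 ± 0.30, adjusted p = 1.1e-05). Gabarap, of the same family, fell from 854, 621 and 771 TPM to 219.6, 156 and 182 TPM (log2 change -2.00 ± 0.16, adjusted p = 1.2e-06), and Gabarapl1 from 157, 188 and 168 TPM to 68, 62.3 and 54.4 TPM (log2 change -1.46). Pink1, the kinase that marks damaged mitochondria, fell from 26.5, 28.8 and 22.2 TPM to 11.2, 8.14 and 7.23 TPM (log2 change -1.46 ± 0.31, adjusted p = 0.0022). The mitophagy receptors Bnip3 (5.87, 4.09 and 10.9 TPM to 25.5, 37.7 and 30.3 TPM, log2 change 2.09 ± 0.35, adjusted p = 3.7e-04) and Fundc1 (1.22), and the conjugation factor Atg5 (1.96), rose. Pink1 was named after its values were seen.

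Protein synthesis genes did not move as a block. Of 23 aminoacyl-tRNA synthetase genes, which charge tRNAs with amino acids, 17 rose and 0 fell, with a median of 1.24. Farsb had 19.5, 18.3 and 19.8 TPM in the QSC libraries and 110.1, 143 and 151 TPM at 1 DPI (log2 change 2.74 ± 0.17, adjusted p = 1.6e-07) and Dars had 54.6, 45.5 and 52.6 TPM in the QSC libraries and 274, 230.1 and 300.1 TPM at 1 DPI (log2 change 2.37 ± 0.16, adjusted p = 2.6e-07), both without overlap. Of 50 nucleolar genes of ribosome assembly, 21 rose and 4 fell, with a median of 0.40. Dkc1, the pseudouridine synthase dyskerin, rose from 87.7, 125 and 165 TPM to 401, 407 and 491 TPM (log2 change 1.81 ± 0.20, adjusted p = 1.1e-05). Ebna1bp2, an assembly factor of the large subunit, rose from 203, 313 and 291 TPM to 625, 755 and 748 TPM (log2 change 1.41 ± 0.15, adjusted p = 8.3e-06). Nop56, a core protein of box C/D particles, fell from 1844, 1663 and 1706 TPM to 881, 1053 and 1043 TPM (log2 change -0.81 ± 0.12, adjusted p = 1.2e-04). After median-of-ratios scaling the nucleolar counts were 12 higher and 11 lower, with a median of -0.04, against 17.5% and 14.9% of all genes.

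Cytosolic ribosomal protein genes moved little. Of 75, 14 were called higher and 5 lower, below the background of 24.8% and near that of 7.72%, and their median change was 0.18. After median-of-ratios scaling 2 were higher and 20 lower, against 17.5% and 14.9% of all genes. The list thus has no direction that holds under both scalings. Leaving out 1 library gave 7 to 18 higher and 1 to 4 lower. The widest fall was that of Rps27, from 9622, 7070 and 5150 TPM to 3910, 4695 and 4008 TPM (log2 change -0.75 ± 0.19, adjusted p = 0.0085). Many ribosomal protein genes have processed pseudogenes of near-identical sequence, which can share their reads. Of 27 initiation factor genes, 10 rose and 6 fell (7 and 9 after median-of-ratios scaling). Genes of eIF2B, the exchange factor of eIF2, were among those that rose, with Eif2b3 from 24.9, 41 and 40.1 TPM to 142, 154 and 181 TPM (log2 change 2.16 ± 0.19, adjusted p = 2.1e-06) and Eif2b1 from 19.4, 25.6 and 16.1 TPM to 74.9, 64.3 and 91 TPM (log2 change 1.87 ± 0.19, adjusted p = 4.6e-06), whereas Eif1, which guards start codon choice, fell from 3853, 3161 and 3303 TPM to 1853, 1833 and 1698 TPM (log2 change -0.93 ± 0.09, adjusted p = 4.7e-06).

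Most genes of the proteasome and of the chaperonin and nuclear import lists rose. Of 31 proteasome subunit genes, 26 rose and 0 fell, with a median of 1.18. Psmc1, an ATPase of the regulatory particle, had 103, 126 and 111 TPM in the QSC libraries and 464, 488 and 502 TPM at 1 DPI (log2 change 2.09 ± 0.12, adjusted p = 1.0e-07), and Psmb5, a catalytic subunit, had 50.3, 79.5 and 64.3 TPM in the QSC libraries and 240.1, 239 and 253 TPM at 1 DPI (log2 change 1.92 ± 0.16, adjusted p = 1.2e-06). Of 21 chaperonin and nuclear import genes, 17 rose and 0 fell, with a median of 1.10. Xpo1, the main nuclear export receptor, had 8.54, 7.88 and 4.38 TPM in the QSC libraries and 93.9, 108 and 89.5 TPM at 1 DPI (log2 change 3.67 ± 0.27, adjusted p = 5.5e-07), and Nup93, a scaffold of the nuclear pore, had 5.51, 9.98 and 13.3 TPM in the QSC libraries and 94.6, 81.5 and 109 TPM at 1 DPI (log2 change 3.24 ± 0.27, adjusted p = 1.2e-06).

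Most genes of nucleotide and one-carbon synthesis rose as well. Of 29 genes of nucleotide and one-carbon synthesis, 25 rose and 1 fell, with a median of 1.79. Dhodh, the mitochondrial enzyme of pyrimidine synthesis, had 5.83, 2.22 and 3.76 TPM in the QSC libraries and 56.3, 49.1 and 44.5 TPM at 1 DPI (log2 change 3.43 ± 0.31, adjusted p = 2.3e-06). Adsl, of purine synthesis, had 17.2, 17.2 and 32.8 TPM in the QSC libraries and 167, 143 and 202 TPM at 1 DPI (log2 change 2.92 ± 0.26, adjusted p = 1.7e-06), and Pfas, of the same pathway, had 4.75, 5.41 and 4.6 TPM in the QSC libraries and 35.4, 39.4 and 39.8 TPM at 1 DPI (log2 change 2.73 ± 0.23, adjusted p = 1.4e-06). The gene that fell was Prps1 (295, 389 and 639 TPM in QSC, then 239.6, 248 and 312 TPM at 1 DPI, log2 change -0.66), a call lost in 6 alternatives. Phgdh, the first enzyme of serine synthesis, named after its values were seen, rose from 8.07, 12 and 0.827 TPM to 147, 158 and 106 TPM (log2 change 4.50 ± 0.55, adjusted p = 2.5e-05).

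Of 20 cholesterol synthesis genes, 17 rose and 0 fell, with a median of 1.81. Fdft1, squalene synthase, had 5.14, 2.36 and 2.16 TPM in the QSC libraries and 64.7, 90 and 33 TPM at 1 DPI (log2 change 3.87 ± 0.35, adjusted p = 2.4e-06). Fdps, farnesyl diphosphate synthase, had 47.5, 59 and 24 TPM in the QSC libraries and 352, 411 and 256 TPM at 1 DPI (log2 change 3.00 ± 0.30, adjusted p = 4.9e-06). In both genes 1 DPI library 3 was the lowest of its group, above every QSC library. A CCAAT stood in 13 of 16 promoter windows of this list, against 37.4% of all windows. These windows belong to 13 of the 20 members tested.

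Genes of energy metabolism went both ways. Of 20 glycolysis genes 11 rose and 2 fell, with a median of 0.64, and after median-of-ratios scaling 7 rose and 3 fell. Eno1, enolase, rose from 293, 314 and 205 TPM to 1357, 1274 and 1371 TPM (log2 change 2.32 ± 0.18, adjusted p = 7.0e-07), and Ldha, lactate dehydrogenase, from 462, 442 and 298 TPM to 1169, 1166 and 1093 TPM (log2 change 1.54 ± 0.16, adjusted p = 7.3e-06). The 2 that fell were Pfkp, a phosphofructokinase (136, 168 and 174 TPM to 89.6, 54.8 and 58.1 TPM, log2 change -1.25 ± 0.21, adjusted p = 3.2e-04), and the glucose transporter gene Slc2a1 (-0.93). Of 20 fatty acid oxidation genes 13 rose and 2 fell, with a median of 0.89, and after that scaling 5 rose and 2 fell. Without 1 DPI library 1 the count of higher genes was 8. Acadm, the medium-chain dehydrogenase, rose from 31.2, 24.2 and 23.1 TPM to 74.2, 79.1 and 80 TPM (log2 change 1.55 ± 0.17, adjusted p = 1.0e-05). Pdk4, the kinase that shuts off pyruvate dehydrogenase, fell from 96.2, 73.5 and 58 TPM to 46.6, 26.9 and 22.3 TPM (log2 change -1.26 ± 0.27, adjusted p = 0.0021).

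Immediate-early genes, which respond within minutes to growth signals and to tissue dissociation, split in direction. Of 25, 5 rose and 7 fell, with a median of -0.34. After median-of-ratios scaling 2 rose and 12 fell, against 17.5% and 14.9% of all genes. Leaving out 1 library gave 3 to 6 higher and 4 to 8 lower. Myc, the growth regulator, fell from 729.9, 856 and 769.9 TPM to 223, 161 and 135 TPM (log2 change -2.20 ± 0.18, adjusted p = 1.1e-06). Fosl1, an AP-1 subunit, fell from 321, 596 and 417 TPM to 142, 161 and 120.4 TPM (log2 change -1.61 ± 0.23, adjusted p = 9.3e-05). Jun (111, 83.3 and 38.3 TPM to 289, 316 and 114 TPM, log2 change 1.61 ± 0.45, adjusted p = 0.013) and Fos (417, 428 and 519 TPM to 1033, 787 and 835 TPM, log2 change 0.96 ± 0.22, adjusted p = 0.0033) rose, and Jun lost its call in 4 alternatives.

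Stress genes moved in both directions. Of 20 heat shock genes 4 rose and 7 fell (3 and 11 after median-of-ratios scaling), and the number that fell ranged from 2 to 7 when 1 library was left out, with 2 without QSC library 1. The mitochondrial chaperonin genes Hspd1 and Hspe1 rose, the first from 374, 318 and 308 TPM to 1129, 1183 and 1212 TPM (log2 change 1.82 ± 0.10, adjusted p = 1.0e-07) and the second from 349.5, 392 and 347 TPM to 985, 997 and 1230 TPM (log2 change 1.55 ± 0.11, adjusted p = 4.6e-07). Hspa5 (BiP), the chaperone of the endoplasmic reticulum, fell from 4118, 3406 and 3768 TPM to 1888, 2009 and 1697 TPM (log2 change -1.01 ± 0.12, adjusted p = 2.3e-05). Of 20 genes of the unfolded protein response 9 rose and 4 fell (8 and 8 after median-of-ratios scaling). Creld2, a secreted stress protein, rose from 39.1, 40.4 and 31.8 TPM to 133, 161 and 163 TPM (log2 change 2.01 ± 0.23, adjusted p = 1.4e-05), and Dnajb9, a co-chaperone of BiP, fell from 358, 249.7 and 337 TPM to 95.2, 73.1 and 73.5 TPM (log2 change -1.95 ± 0.21, adjusted p = 7.6e-06). Of 20 targets of ATF4, the factor of the integrated stress response, 2 rose and 3 fell (1 and 10 after that scaling, and 5 lower without QSC library 3). Asns, asparagine synthetase, had 2.69, 1.99 and 2.62 TPM in the QSC libraries and 88.6, 105 and 67.8 TPM at 1 DPI (log2 change 4.66 ± 0.27, adjusted p = 1.4e-07), whereas Cebpb fell from 35.8, 45.2 and 54.2 TPM to 7.7, 10.6 and 8.01 TPM (log2 change -2.23 ± 0.27, adjusted p = 2.3e-05) and Atf4 itself did not pass (377, 281 and 241 TPM and 260.3, 249.6 and 153 TPM, adjusted p = 0.13).

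Of 15 circadian clock genes 1 rose (6.67%) and 5 fell (33.3%), against 24.8% and 7.72% of all genes. Arntl (BMAL1), the core activator, fell from 24.9, 58.5 and 51.3 TPM to 8.11, 11.6 and 8.31 TPM (log2 change -2.08 ± 0.33, adjusted p = 2.1e-04), and Nr1d1 (REV-ERB alpha), its repressor, from 152, 189 and 94.4 TPM to 44.8, 36.3 and 22.5 TPM (log2 change -2.04 ± 0.33, adjusted p = 2.4e-04). The count of lower genes was 2 without QSC library 2 or 3 or 1 DPI library 3, and the hour of collection is not given in the labels.

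Genes of signals sent to other cells changed one by one. Of 20 chemokines and cytokines 7 rose and 2 fell. Csf1, the growth factor of macrophages, had 11.9, 10.6 and 5.68 TPM in the QSC libraries and 103, 161 and 52.4 TPM at 1 DPI (log2 change 3.27 ± 0.44, adjusted p = 5.7e-05). Cxcl12, a chemokine that draws stem and immune cells, had 25.7, 19.2 and 16.7 TPM in the QSC libraries and 91.3, 86.7 and 86.4 TPM at 1 DPI (log2 change 2.07 ± 0.29, adjusted p = 7.4e-05). Cxcl1, a neutrophil chemokine, fell from 1242, 2788 and 2094 TPM to 334, 306 and 437 TPM (log2 change -2.44 ± 0.38, adjusted p = 1.8e-04), and Lif, a cytokine of the IL-6 family, from 11.2, 30 and 19.5 TPM to 0.791, 1.87 and 0.537 TPM (log2 change -3.31 ± 0.60, adjusted p = 7.1e-04). Ccl2, a monocyte chemokine (547, 928 and 954 TPM and 273, 208 and 572 TPM), had overlapping groups and did not pass (adjusted p = 0.14). Tnf, an inflammatory cytokine, stood at 1.69, 0.0626 and 0.0624 TPM and 7.62, 12.7 and 18.4 TPM (log2 change 3.19 ± 0.68, adjusted p = 0.0022). Lif and Tnf were named after their values were seen.

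Of 25 growth factor receptor and signalling genes 3 rose (12.0%) and 8 fell (32.0%), against 24.8% and 7.72% of all genes. The number that fell was 4 to 8 when 1 library was left out. Met, the receptor of hepatocyte growth factor, which activates satellite cells, had 8.82, 11.6 and 7.48 TPM in the QSC libraries and 41.2, 51.3 and 43.6 TPM at 1 DPI (log2 change 2.18 ± 0.19, adjusted p = 1.5e-06). Fgfr1, a receptor of fibroblast growth factors, fell from 167, 381 and 259.9 TPM to 68.7, 47.6 and 34.7 TPM (log2 change -2.37 ± 0.33, adjusted p = 7.7e-05). Igf2 fell from 117, 110.5 and 74.1 TPM to 40.2, 32.3 and 20 TPM (log2 change -1.70 ± 0.32, adjusted p = 9.9e-04), and Stat3, the factor downstream of IL-6 receptors, from 408, 545 and 451 TPM to 265, 200.1 and 107 TPM (log2 change -1.37 ± 0.29, adjusted p = 0.0022). Of 15 Wnt genes 1 rose (6.67%) and 2 fell (13.3%), against 24.8% and 7.72% of all genes. The ligand Wnt4, known in mice to keep satellite cells quiescent, fell from 8.85, 6.08 and 8.58 TPM to 0.974, 0.372 and 0.451 TPM (log2 change -2.47 ± 0.28, adjusted p = 1.3e-05). Of 22 TGF-beta and BMP genes 3 rose (13.6%), a share below the 24.8% of all genes, and 0 fell. After median-of-ratios scaling 1 rose and 5 fell, against 17.5% and 14.9% of all genes. Id1, a BMP target that blocks differentiation, rose from 167, 134 and 163 TPM to 379.5, 367 and 329 TPM (log2 change 1.21 ± 0.16, adjusted p = 5.4e-05).

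Matrix and adhesion genes were mixed. Of 31 collagen and matrix genes 6 rose, a share not above the 24.8% of all genes, and 4 fell (3 and 6 after median-of-ratios scaling). Tnc (tenascin-C), a glycoprotein of the regenerating niche, had 0.783, 6.2 and 1.68 TPM in the QSC libraries and 69.8, 91.1 and 50.1 TPM at 1 DPI (log2 change 4.41 ± 0.48, adjusted p = 9.6e-06). Timp1, an inhibitor of metalloproteinases, had 10.7, 20.5 and 6.69 TPM in the QSC libraries and 171, 179 and 152 TPM at 1 DPI (log2 change 3.75 ± 0.29, adjusted p = 7.4e-07). Dcn (decorin) fell from 429.8, 439.7 and 563 TPM to 167, 72 and 152 TPM (log2 change -1.94 ± 0.28, adjusted p = 9.1e-05) and Timp3 from 208, 116 and 113 TPM to 31.9, 34.1 and 37.3 TPM (log2 change -1.99 ± 0.25, adjusted p = 2.7e-05). Dcn is also among the fibro-adipogenic markers whose sum was lower at 1 DPI. Of 22 integrin and adhesion genes 3 rose (13.6%) and 6 fell (27.3%), against 24.8% and 7.72% of all genes. After median-of-ratios scaling 2 rose and 10 fell, against 17.5% and 14.9% of all genes. Without 1 DPI library 3 the count of lower genes was 3. Itgav, the alpha chain of vitronectin receptors, fell from 79.4, 162 and 224 TPM to 55.3, 50.9 and 46.9 TPM (log2 change -1.47 ± 0.28, adjusted p = 9.5e-04), and the tetraspanin Cd9 from 956, 1468 and 2049 TPM to 550.3, 423 and 462 TPM (log2 change -1.58 ± 0.21, adjusted p = 4.9e-05).

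Of 30 interferon-stimulated and antigen presentation genes 5 rose and 5 fell (16.7% each), against 24.8% and 7.72% of all genes. After median-of-ratios scaling 3 rose and 6 fell, against 17.5% and 14.9% of all genes. Leaving out 1 library gave 3 to 11 higher, the 11 without 1 DPI library 2. Genes of MHC class I fell, with B2m at 3756, 2376 and 2644 TPM in QSC, then 911, 652 and 1323 TPM at 1 DPI (log2 change -1.64 ± 0.24, adjusted p = 1.0e-04) and H2-K1 at 1589, 956 and 827 TPM and 424, 438 and 308 TPM (log2 change -1.48 ± 0.22, adjusted p = 1.2e-04). The antiviral tether Bst2 rose from 62.5, 34.6 and 40.2 TPM to 132, 83.9 and 171 TPM (log2 change 1.46 ± 0.31, adjusted p = 0.0023). QSC library 1, which held the blood cell markers, was the highest of its group for B2m and H2-K1. Without that library 6 members rose and 5 fell.

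Young cells went through the same step in separate libraries. Among the 5511 genes called in old cells, 96.6% changed with the same sign in young cells, against 78.3% of all genes tested, and across all genes the changes of both ages had r = 0.73 (Pearson, over genes, which are not independent). A test of the difference between the steps, as an interaction of age and injury, called 2 genes of 16949 (0.0118%), with 1497 at an unadjusted p under 0.05. The median standard error of that difference was 0.54, against 0.38 for the old step. The spread of a gene was estimated once over all groups, so the larger error follows from the design. No gene of the 48 lists was called in it. Leaving out 1 library gave 8 calls without QSC library 1, 4 without QSC library 3, 1 without 1 DPI library 1 or 3, and 0 without QSC library 2 or 1 DPI library 2.

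The list medians of the young step stood beside those of the old step at 3.47 for DNA replication (3.40 in old cells), 3.62 for mitosis (2.66, 1.38 to 4.0 over the alternatives), 1.65 for mitochondrial ribosomal proteins (2.11) and 1.23 for complex I (1.37). For cholesterol synthesis they were 1.07 and 1.81, for nucleolar genes -0.18 and 0.40, and for sarcomere genes 0.81 and -0.01. In the mitosis list the mean log2(TPM + 1) over members was 3.66, 2.92 and 4.29 in the old 1 DPI libraries and 5.54, 5.22 and 5.69 in the young ones, ranges that do not overlap, while in QSC it was 0.97, 0.99 and 1.07 in old and 1.48, 1.91 and 1.30 in young libraries. For DNA replication the old 1 DPI libraries had 6.26, 5.82 and 6.39 and the young ones 6.31, 6.34 and 6.53, which overlap. Cyclin B1 (Ccnb1) changed by 3.25 in old and 5.48 in young cells, and the interaction did not pass (difference -2.23 ± 0.68, adjusted p = 0.37).

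Among named protein-coding genes of at least 10 TPM in a group, those of smallest p in the interaction were Oxtr, Tsc22d1, Id3, Ndufaf2, Ube2s and Gmfb, of which the first passed. Oxtr, the oxytocin receptor, stood at 10.6, 9.23 and 14 TPM in young QSC and at 0.0165, 0.244 and 1.02 TPM in old QSC, and was at or below 0.0193 TPM in all 6 libraries at 1 DPI. Its change was -3.57 ± 0.29 in young and -0.42 ± 0.29 in old cells, a difference of 3.15 ± 0.40 (adjusted p = 0.019). The interaction called no gene in 6 of the 14 alternatives, so this call is lost in them. It called 1 gene without 1 DPI library 1 or 3, where the Oxtr call may be lost as well. The old and young libraries thus lay apart in QSC, and all stood near the lowest value of the table at 1 DPI. Tsc22d1, a leucine zipper protein induced by TGF-beta, changed by 3.01 in young and 1.42 in old cells, Id3 by 0.74 and -0.21, Ndufaf2, an assembly factor of complex I, by 0.43 and 1.77, Gmfb, glia maturation factor beta, by -0.40 and 0.80, and Ube2s, a ubiquitin-conjugating enzyme of the anaphase-promoting complex, by -0.22 and -1.60. None of these 5 differences passed, and the adjusted p of Tsc22d1, Id3, Ndufaf2 and Ube2s was 0.14 each, that of Gmfb 0.15.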

How the data were processed

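RNA was sequenced single-end. The deposited values are TPM per gene, made by the authors with RSEM 1.3.1 after cutadapt 1.7.1 and CASAVA 1.8.2 on GRCm38, per the submitters' processing notes. No aligner is named in those notes, and it is not stated which of the 2 library protocols that the labels name served each library. TPM keep no depth, so the depth of each library is unknown. The table held 55471 gene identifiers, of which 55230 were given a symbol from GENCODE M21, and no value of 0. The deposited TPM sum to 1000000 in each library and were used unchanged. Relative to each library's commonest value, 42208 genes have a lowest value that at least 2 libraries share (relative tolerance 1e-06), and how that floor arose is not stated.

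From the TPM, log2(TPM + 1) was tested in limma 3.58.1 (R 4.3.3) on all 15 libraries, with a mean per group, a trended prior, two-sided tests and Benjamini-Hochberg adjustment over the 16949 genes of at least 1 TPM in 3 libraries. The interaction is the old step minus the young step. A total of 14 alternatives were run. Genes were named by rule (10 largest rises and falls, 4 of smallest p in each list, 6 of the interaction, 9 fixed genes, list members that did not pass or went against their list). Malat1, Pcna, Mcm2, Ccnb1, Cdon, Vcam1, Mff, Mfn2, Pink1, Phgdh, Lif, Tnf and the marker genes given beside marker sums were named after their values were seen. Some genes are not reported here. Of 168 named genes, 16 shared over 50% of their longest transcript with another gene (blastn, 95% identity over at least 100 bases), and their values are uncertain: Bnip3, Ccnb1, Eno1, Fdft1, Fosl1, Hspd1, Igf2, Ldha, Ndufaf2, Pcna, Phgdh, Psmb5, Psmc1, Stoml2, mt-Co3 and mt-Nd3. The members and lists were chosen with earlier results of these data known.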

Additional observations from a re-analysis of the deposited data

Results flagged for a closer look

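For 2 genes the step from QSC to 1 DPI differed between old and young cells in the test of the interaction. Oxtr changed by -0.42 in old and -3.57 in young cells, a difference of 3.15 ± 0.40 (limma, adjusted p = 0.019). Gm48294, a sense-intronic RNA named here because the test called it, stood at 7.64, 7.84 and 5.5 TPM in old QSC and 0.0524, 0.0516 and 0.0485 TPM in old 1 DPI libraries, and at 0.0522, 0.0517 and 0.051 TPM and 0.0512, 0.0532 and 1.2 TPM in the young ones. Its difference was -3.27 ± 0.42 (adjusted p = 0.019). Both calls are lost in the 6 of 14 alternatives in which the interaction called no gene, namely at least 5 TPM, the groups compared alone, a pseudocount of 0.1, the replicate block, and without QSC library 2 or 1 DPI library 2. Without 1 DPI library 1 or 3 the interaction called 1 gene, so the 2 calls cannot both hold there.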

How the results depend on the processing

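Depth is unknown, and 3 libraries a group limit the precision. Over the 14 alternatives the total of called genes was 4436 to 5826 against 5511. The number called lower was 2520 after median-of-ratios scaling against 1309. Leaving out 1 library gave 4603 to 5192 called, 3515 to 3930 higher and 886 to 1262 lower, and 0 to 8 calls in the interaction. The interaction had 2 calls, with 7 without a filter on low values and 0 with at least 5 TPM, with a pseudocount of 0.1, within the groups compared alone and under the replicate block. Whether replicate numbers pair the libraries is not known. Correlations of deviations between QSC and 1 DPI libraries were 0.04, 0.07 and 0.06 for the same number. They were -0.08 to 0.02 for other numbers. The fit with the replicate block called 5826 genes, 4402 higher and 1424 lower. Among named genes, Slbp changed sign after median-of-ratios scaling (-0.11) and 3 others when 1 library was left out, with a range of -0.47 to 0.17 for Myod1, -0.45 to 0.18 for Myog and -0.10 to 0.0083 for mt-Nd1, none of which was called. Of 151 called genes that are named, 135 were called in every alternative run. The cause was not tested.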
